A study of Mus musculus with 6 samples.

Results

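The mouse genes with symbols Zfp900 to Zfp999 are zinc finger genes, named in sequence and mostly found in gene clusters that expanded in rodents. They were taken as the rows of the deposited count table whose symbol is Zfp followed by 3 digits that begin with 9, which gave 61 genes of 31641. Symbols with a letter after the number, such as Zfp955a, fall outside this rule. After Nat10 knockdown, 23 of the 56 members with enough counts to test fell and 7 rose, where 30.8% of all genes tested were lower and 32.2% higher. Of the 23 members that fell, 14 lie in a single cluster of 16 members on chromosome 4.

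Most genes of this kind encode KRAB zinc finger proteins. An array of C2H2 zinc fingers reads DNA, often within an endogenous retrovirus or another transposable element, and the KRAB domain recruits TRIM28 (KAP1), which brings in the histone methyltransferase SETDB1 and HP1 proteins and so lays down repressive chromatin. In mouse embryonic stem cells this pathway keeps many retroviral elements silent, and cells in which clusters of KRAB zinc finger genes were deleted have been described with raised transcription of particular retroviral families. The genes arose by repeated local duplication, so genes of a cluster can resemble each other in their transcripts and in the bases before their start sites, though not all do.

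The libraries were made from poly(A) RNA of E14, an established mouse embryonic stem cell line. In the control group (CON, 3 libraries) Nat10 was wild-type and no doxycycline was given. In the knockdown group (KD, 3 libraries) Nat10 was knocked down and doxycycline was given. Nat10 acetylates cytidines in RNA, and the series title concerns its role in pluripotency and in a state of these cells that resembles the 2-cell embryo. Doxycycline and the knockdown cannot be told apart here, and the labels say neither how the knockdown was built, whether the line is a single clone, nor whether each replicate was its own culture. The p-values therefore rest on the spread between libraries, which may be technical.

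Library totals were 33770755 to 39524273 counts. Nat10 itself stood at 149 ± 2.93 CPM in CON and 27.4 ± 1.24 in KD (SD, n = 3 libraries each), where CPM gives each count relative to its library's TMM-scaled total. Much of the transcriptome differed between the groups, as 63% of 18019 genes tested passed an adjusted p of 0.05 in edgeR's quasi-likelihood test, 32.2% higher and 30.8% lower in KD. All 10 stem cell markers examined were among the lower genes, with a summed level of 7124 to 7159 CPM in CON and 2453 to 2584 in KD. Markers of other cell types moved in mixed directions. Summed levels were 13.4 to 16.6 CPM in CON and 24.8 to 28.5 in KD for 5 fibroblast feeder genes (2 higher, 1 lower, 2 not tested), 45.8 to 51.1 and 44.9 to 46.4 for 7 primitive endoderm genes (2 higher, 1 lower), 143 to 146 and 82.5 to 90.4 for 6 neuronal genes (3 higher, 2 lower), and 1123 to 1174 and 1062 to 1106 for 7 trophoblast genes (2 higher, 4 lower). No listed marker was at 0 in all libraries, while Dcn, Lum and Dcx are not rows of the table. The part of these shifts in the zinc finger results was not tested.

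All 61 members have an annotated position, on 12 chromosomes. A cluster here is a run of at least 3 members on a chromosome whose neighbouring starts lie at most 1000000 bases apart. This gave clusters of 16 members on chromosome 4, 10 on chromosome 17, 8 on chromosome 2, 4 on chromosome 7 and 3 on chromosome 8, and left 20 members outside any cluster. Translated from the annotation, 58 of the 60 protein-coding members contained at least 1 C2H2 finger, with a median of 11 and a maximum of 21. A KRAB domain, read as at least 9 of 11 fixed letters of its A box, was found in 57. The members that did not reach 9 letters were Zfp956, Zfp957, Zfp974 and the transcribed pseudogene Zfp939, and a more divergent KRAB domain was not searched for.

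The bases before the start sites of the chromosome 4 genes are shown first. The 7 members of this cluster that fell and have a matched window share long stretches of them. The only further member with a matched window is Zfp933, which did not pass the test. RefSeq windows of 250 bases before the start (GRCm38.p6) were matched to 48 members by symbol and by a start within 1000 bases of the annotated one, 8 of them in the chromosome 4 cluster. Below are 100 bases of each of these 8, read 5′ to 3′ on the gene's strand, where capitals mark 2 stretches that 7 of them hold in full. The stretches were sought in these 7 because the genes had fallen, so their presence there is a description. Their absence from the single window left, that of Zfp933, is no test either. The rest of the cluster, among them Zfp991 and Zfp992 with its largest falls, had no matched window. Whether the stretches relate to the falls was not tested.
Zfp980 (chr4:145670546-145670645, plus strand, bases -151 to -52 from the start): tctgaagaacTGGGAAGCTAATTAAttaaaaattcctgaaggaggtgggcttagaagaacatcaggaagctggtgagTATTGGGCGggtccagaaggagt
Zfp987 (chr4:146097151-146097250, plus strand, -161 to -62): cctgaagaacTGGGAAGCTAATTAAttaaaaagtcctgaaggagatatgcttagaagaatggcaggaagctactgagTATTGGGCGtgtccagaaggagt
Zfp988 (chr4:147305480-147305579, plus strand, -124 to -25): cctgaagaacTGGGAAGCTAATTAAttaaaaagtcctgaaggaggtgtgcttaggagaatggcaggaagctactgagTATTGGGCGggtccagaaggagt
Zfp982 (chr4:147492256-147492355, plus strand, -161 to -62): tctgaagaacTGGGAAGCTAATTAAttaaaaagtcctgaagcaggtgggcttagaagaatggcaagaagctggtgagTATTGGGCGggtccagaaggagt
Zfp985 (chr4:147553131-147553230, plus strand, -146 to -47): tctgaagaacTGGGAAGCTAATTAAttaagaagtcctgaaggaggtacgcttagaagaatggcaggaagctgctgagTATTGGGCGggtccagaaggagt
Zfp979 (chr4:147642560-147642659, minus strand, -151 to -52): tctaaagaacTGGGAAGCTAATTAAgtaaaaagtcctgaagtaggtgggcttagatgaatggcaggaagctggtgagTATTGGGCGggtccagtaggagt
Zfp984 (chr4:147809853-147809952, minus strand, -164 to -65): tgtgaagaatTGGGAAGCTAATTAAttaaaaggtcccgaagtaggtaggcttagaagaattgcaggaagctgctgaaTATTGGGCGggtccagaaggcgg
Zfp933 (chr4:147848419-147848518, minus strand, -100 to -1): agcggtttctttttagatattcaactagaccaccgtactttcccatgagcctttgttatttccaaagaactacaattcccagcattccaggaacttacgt

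The longer stretch, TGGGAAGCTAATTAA, was found on either strand in 12 of 32851 RefSeq windows (0.0365%), and each of the 12 lies within the chromosome 4 cluster. Beside the 7 members above, these are the window of Zfp981, whose RefSeq start lies 12893 bases from the annotated gene start, and those of Gm13212, Rex2, Zfp534 and Zfp600, KRAB zinc finger genes of the same span that are no members. Zfp981 fell 1.64-fold, and the 4 other genes were lower in KD by 1.65-fold (Rex2) to 2.14-fold (Zfp534). Their counts may not be separate from those of members, as Zfp980 shares transcript sequence with Zfp600, and Zfp985 with Gm13212. All 12 lie in the same 2.34 Mb and resemble each other in sequence, so they are not independent cases.

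The shorter stretch, TATTGGGCG, was in 37 of 32851 windows (0.113%). It holds the CCAAT box, read on the other strand, and in 6 of the 7 members the next base completes a GC box (GGGCGG) that overlaps it, giving ATTGGGCGG. CCAAT and GC boxes are common promoter elements, present in 33.9% and 32.7% of all windows. Among the 48 member windows the CCAAT box was in 36, with 11 lower, 5 higher, 17 not past the test and 3 not tested. A GC box was in 16 member windows, with 8 lower, 4 higher and 4 not past the test. By contrast, the overlapping form was in 0.231% of all windows. Outside chromosome 4 it was in the windows of the chromosome 17 members Zfp947, which did not pass the test, and Zfp994, which rose. Of the tested genes that are no members, 16 hold TATTGGGCG, with 8 lower, 5 higher and 3 not past the test. The 8 lower genes include Gm13212, Rex2, Zfp534 and Zfp600 of the chromosome 4 span. The overlapping form was in 56 such genes, with 19 lower, 20 higher and 17 not past the test. Of all genes tested, 30.8% were lower and 32.2% higher. A further shared stretch, AAGCAAGCAAG, lies outside the printed bases and was in 37 windows (0.113%), among them those of the same 7 members. Of 11 tested genes with it that are no members, 5 were lower, 1 was higher and 5 did not pass. The 5 lower genes include Rex2, Zfp534 and Zfp600 of the chromosome 4 span.

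Over the whole 250 bases, the 7 windows had a median identity of 73.9% with each other (62.9 to 89.0% over 21 pairs). The Zfp933 window had 50.7% with them and the windows of members outside the cluster 48.8%. The 7 windows had a median GC content of 40.8%, against 51.2% in the other 41 member windows and 52.4% in all windows. A match in these letters is not evidence that a factor binds there, and no match says only that the letters are absent from this window.

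The chromosome 4 cluster spans chr4:145510759-147848366 (GRCm38), from Zfp990 to Zfp933. Of its 16 members, 14 fell, 0 rose and 2 did not pass, and 9 of the 14 were at least 2-fold lower, a fall that 7.11% of all genes tested reached. The median log2 fold change, KD over CON, was -1.01, beside 0.018 for all genes. Their summed level was 403, 372 and 374 CPM in CON and 174, 185 and 217 CPM in KD, so that the lowest CON library stood far above the highest KD library. The cluster held 50.7 ± 0.16% of all counts on the 61 members in CON and 36.5 ± 0.97% in KD (SD, n = 3). In bulk RNA, fewer cells that express a gene and less RNA per cell cannot be told apart. At an unadjusted p under 0.05, 1 member of the cluster was higher, both in edgeR and in DESeq2, and this was Zfp933.

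**Figure D1:**
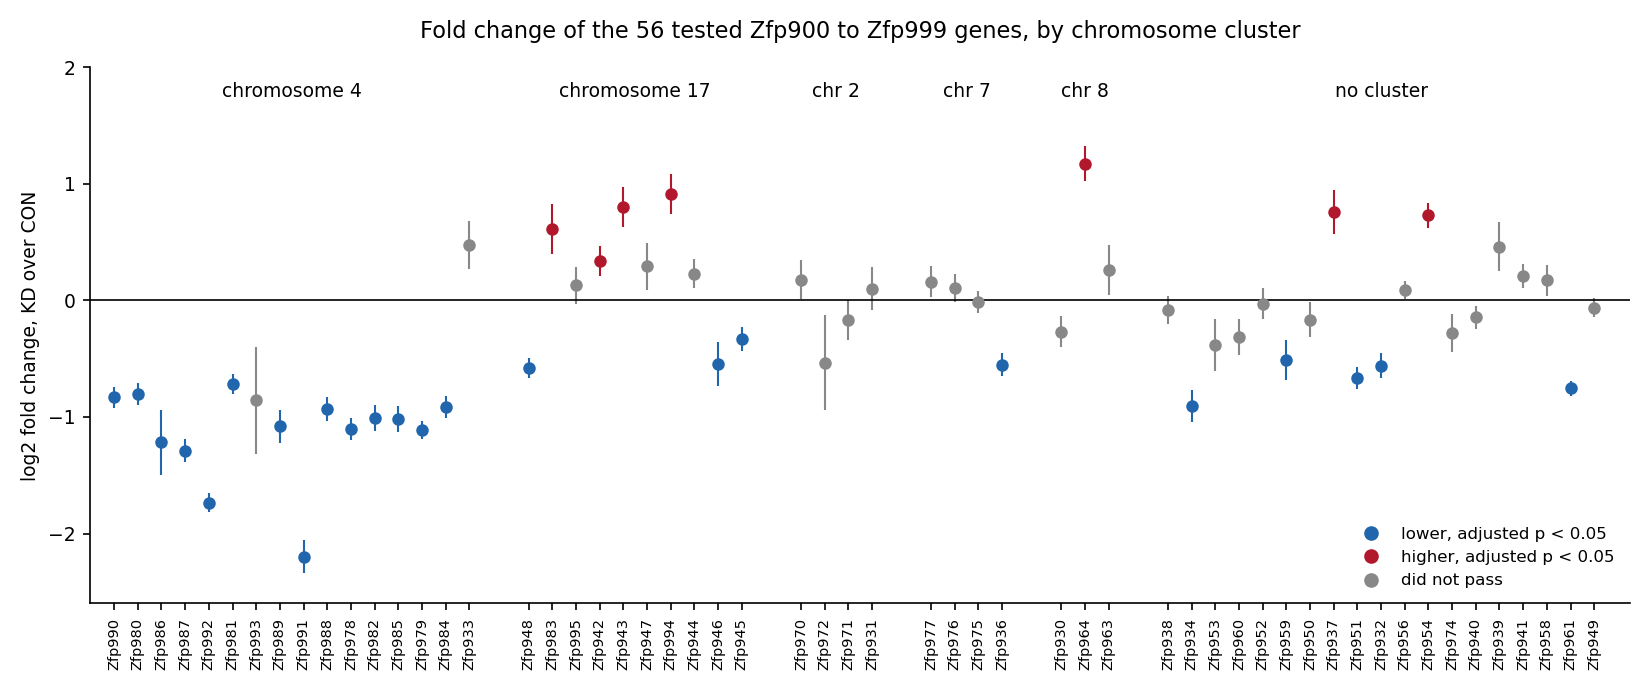
Log2 fold change (KD over CON) of each of the 56 tested genes, with its standard error, grouped by chromosome cluster in chromosomal order. Blue points were lower and red points higher at an adjusted p under 0.05. On chromosome 4, 15 of 16 points lie below 0, while the other groups hold points on both sides.

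Zfp991 changed most. It stood at 11.97, 10.5 and 13.1 CPM in CON and at 2.27, 3.11 and 2.35 in KD. Every KD library lay below every CON library by a wide margin, and the fall was 4.59-fold (log2 fold change -2.20, SE 0.14, adjusted p = 3.51e-09 in edgeR's quasi-likelihood test). Zfp992, in the same cluster but not next to it, stood at 33.9, 33.8 and 32.2 CPM in CON and at 9.61, 9.53 and 10.9 in KD. The libraries within each group were close together, and the fall was 3.33-fold (log2 fold change -1.74, SE 0.08, adjusted p = 6.49e-11). Zfp991 and Zfp992 encode proteins of 573 residues with 11 fingers each, and the 2 genes share transcript sequence. Zfp991 also shares transcript sequence with the pseudogene Znf41-ps of the same span, which fell 4.80-fold. Whether reads of Zfp991 and Znf41-ps were mixed was not tested.

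Zfp987, with 14 fingers, stood at 16.5, 16.1 and 14.9 CPM in CON and 6.11, 6.40 and 6.94 in KD, a 2.44-fold fall (adjusted p = 1.78e-08). Zfp979 stood at 58.3, 54.1 and 50.5 CPM in CON and 23.2, 24.97 and 27.2 in KD, a 2.16-fold fall (adjusted p = 4.13e-09). Zfp979 carries only 3 fingers, as does Zfp978, and both stand among the 3 most abundant members of the cluster per kilobase of exon. Zfp978 stood at 28.2, 23.8 and 29.3 CPM in CON and 12.6, 11.96 and 13.3 in KD, a 2.15-fold fall (adjusted p = 4.24e-08). Zfp989, with 15 fingers, stood at 7.01, 6.24 and 6.06 CPM in CON and 3.34, 2.83 and 2.95 in KD, a 2.12-fold fall (adjusted p = 5.61e-06). In none of these 4 genes did the groups overlap.

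Zfp982, whose protein has been described as a factor that supports stem cell gene expression in mouse embryonic stem cells, stood at 13.5, 14.4 and 12.1 CPM in CON and 5.89, 7.31 and 6.62 in KD. The highest KD library was well under the lowest CON library, and the fall was 2.02-fold (log2 fold change -1.01, SE 0.11, adjusted p = 1.20e-06). Zfp985 stood at 29.0, 24.0 and 24.6 CPM in CON and 11.5, 11.5 and 15.4 in KD, also a 2.02-fold fall (adjusted p = 1.27e-06). Zfp986 was the member that fell with the fewest counts, at 46, 66 and 43 counts in the CON libraries against 30, 25 and 23 in the KD libraries. Its fall was 2.32-fold on the CPM scale (log2 fold change -1.22, SE 0.28, adjusted p = 0.0013), with a wider error than the others.

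The remaining 5 members of the cluster that fell did so by less than 2-fold. Zfp990, the first gene of the cluster, stood at 82.9, 80.2 and 75.4 CPM in CON and 38.9, 42.2 and 53.3 in KD, a 1.78-fold fall. Zfp988 (33.1 ± 3.17 CPM in CON, 17.3 ± 2.81 in KD), Zfp984 (23.0 ± 2.05 and 12.2 ± 1.20), Zfp980 (29.1 ± 0.98 and 16.7 ± 2.37) and Zfp981 (24.4 ± 0.83 and 14.8 ± 1.77) fell 1.91-, 1.88-, 1.74- and 1.64-fold (SD, n = 3). KD-3 was the highest KD library for all 5, and for 11 of the 16 members of the cluster. Across all tested members KD-3 was highest in 40 of 56, and members took 0.0625% of its counts beside 0.0525 and 0.0551% in KD-1 and KD-2.

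**Figure D2:**
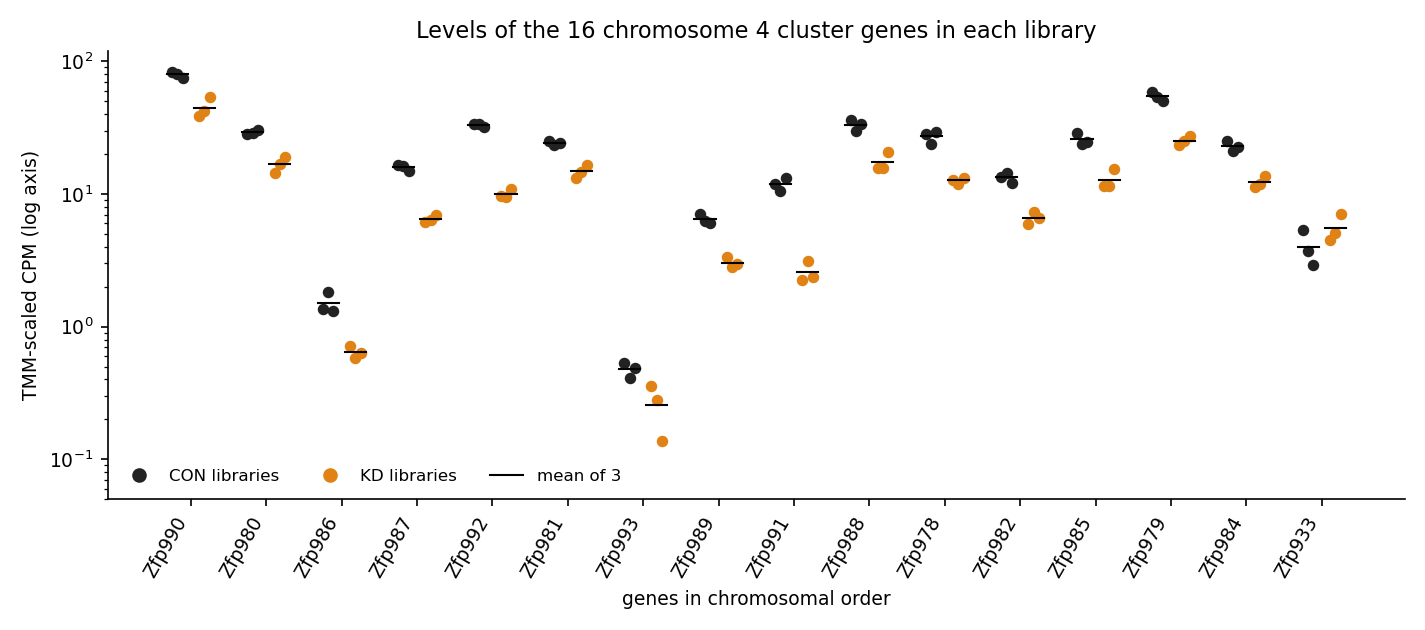
TMM-scaled CPM, on a log axis, of each of the 16 members of the chromosome 4 cluster in the 3 CON and 3 KD libraries, in chromosomal order, with the mean of each group as a line. For 15 members every KD library lies below every CON library, and for Zfp933 the groups overlap.

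Zfp993 and Zfp933 did not pass the test. Zfp993 had 18, 15 and 16 counts in the CON libraries against 15, 12 and 5 in the KD libraries, and on the CPM scale all KD libraries lay below all CON libraries (log2 fold change -0.86, SE 0.46, adjusted p = 0.115). Zfp933, the last gene of the cluster, stood at 5.31, 3.71 and 2.92 CPM in CON and 4.49, 5.09 and 7.11 in KD. Its groups overlapped (log2 fold change 0.47, SE 0.21, adjusted p = 0.0591), and it passed as higher without CON-1 (adjusted p = 0.0101) or without KD-1 (adjusted p = 0.0177). Leaving out any single library ended none of the 14 falls in the cluster.

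Reads from duplicated genes can be assigned to the wrong copy, and the sources used here do not say how reads that match several places were treated. As a measure of this, every 50-base stretch of a gene's transcripts was looked up in the transcripts of all other genes. In the chromosome 4 cluster a median of 61.2% of a member's stretches recurred elsewhere (1.83 to 89%), against 10.4% in the other members. The values of most single genes of the cluster are therefore uncertain. Zfp982 and Zfp985, with 11.9 and 15.9% of stretches shared, are the better separated members that fell, and Zfp933, with 1.83%, is the best separated of the cluster. Zfp991 and Zfp987 shared 82.2 and 89%. Exonic bases are shared with an overlapping gene by 11 of the 61 members, 3 of them on opposite strands (Zfp943, Zfp961 and Zfp974), and without a stated strand setting reads of such pairs cannot be told apart. Of the 13 members of the cluster with at least 20% shared, 12 fell, and of the 3 under 20%, 2 fell.

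**Figure D3:**
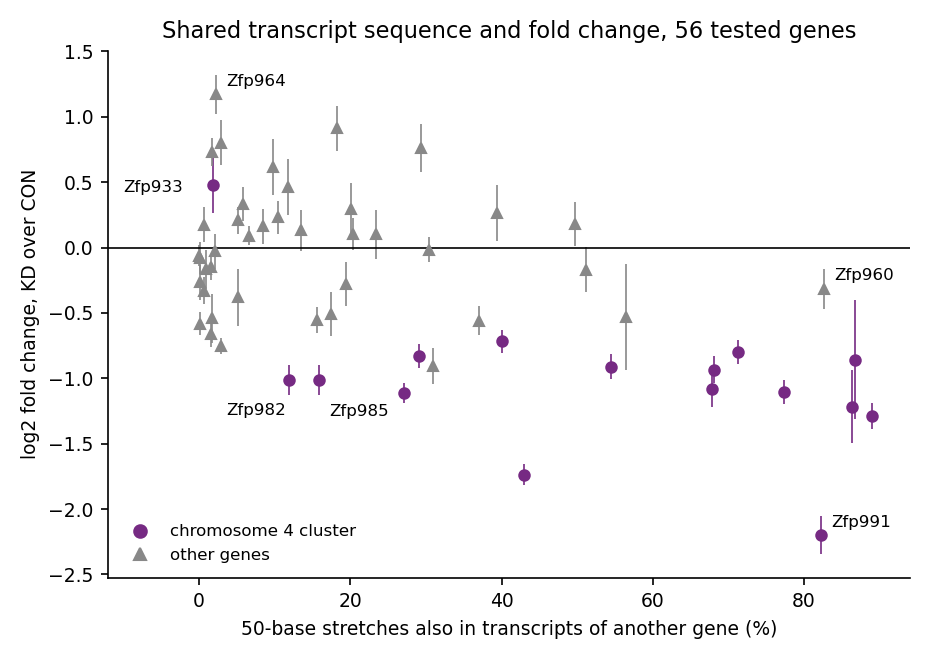
Percent of each gene's 50-base transcript stretches that recur in transcripts of another gene, against its log2 fold change (KD over CON) with standard error, for the 56 tested genes. Chromosome 4 members (circles) reach from 1.83 to 89% on the x axis. Zfp982 and Zfp985 lie below 0 with 11.9 and 15.9% shared, and Zfp960 on chromosome 17, with 82.7% shared, lies at -0.32 and did not pass.

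The span of the cluster holds 59 other annotated genes that are rows of the table, of which 36 were tested, 14 were lower (38.9%, beside 30.8% of all genes tested) and 5 higher in KD. The other 4 KRAB zinc finger genes of the span, Gm13212, Zfp600, Rex2 and Zfp534, were all among the 14. Just outside, 4 of 9 tested genes were lower in the 1 Mb on the Zfp990 side (44.4%, with 1 higher) and 12 of 22 in the 1 Mb on the Zfp933 side (54.5%, with 7 higher). Falls of at least 2-fold, which 7.11% of all genes tested reached, were not limited to members. They were seen in 9 of the 36 other genes of the span, with 1 at least 2-fold higher. On the Zfp990 side 4 of 9 fell this far and 1 rose as much, and on the Zfp933 side 2 of 22 and 0. Whether the cluster differs from its flanks was not tested.

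The 45 members outside the cluster changed in both directions. Of the 40 tested, 7 rose (17.5%) and 9 fell (22.5%), both below the 32.2% and 30.8% of all genes, with a median log2 fold change of -0.02. Their summed level was 395, 361 and 362 CPM in CON and 313, 324 and 360 in KD, so the groups came close, with KD-3 just under the lowest CON library. The difference between the chromosome 4 cluster and these members was not tested, because the members were chosen with results known.

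**Figure D4:**
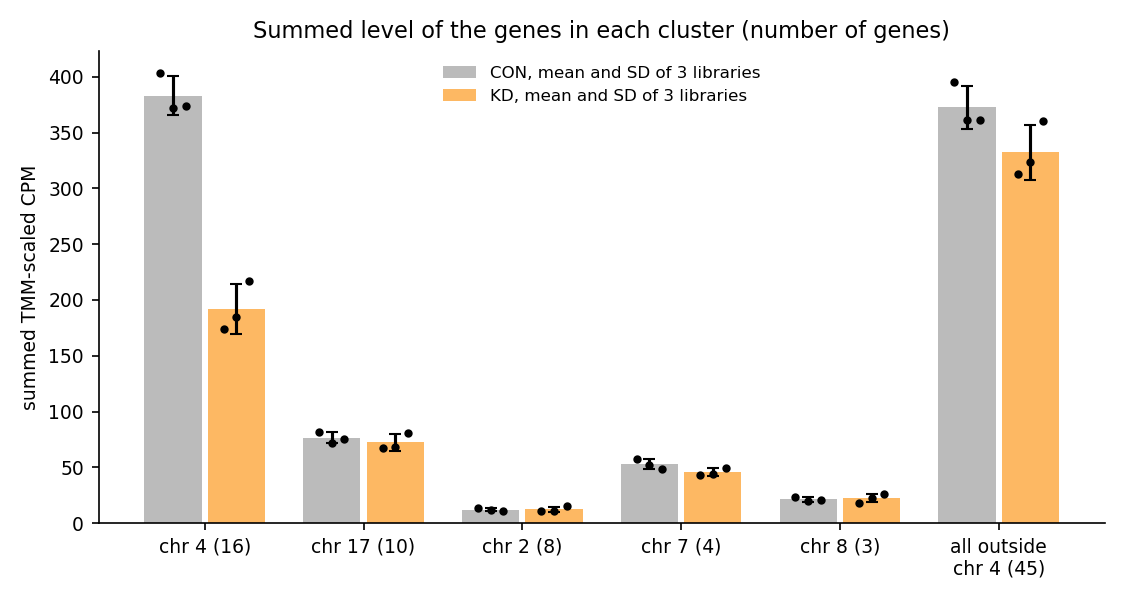
Summed TMM-scaled CPM of the genes in each cluster, and of all 45 members outside chromosome 4, as mean and SD of 3 libraries (bars) with each library as a point. The chromosome 4 bars stand at 383 ± 17.5 CPM in CON and 192 ± 22.4 in KD, and the other clusters differ by less between the groups.

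The chromosome 17 cluster (chr17:21567008-22867134) had 4 of 10 members higher, 3 lower and 3 not past the test, shares of 40% and 30% that are near the 32.2% and 30.8% of all genes tested. Zfp994, with 17 fingers, stood at 2.67, 3.27 and 2.61 CPM in CON and 4.82, 4.72 and 6.67 in KD, a 1.88-fold rise (adjusted p = 0.000255). Zfp943 stood at 2.70, 2.75 and 2.24 CPM in CON and 3.70, 4.53 and 5.25 in KD, a 1.74-fold rise (adjusted p = 0.000792). The groups of these 2 genes were apart, though the KD libraries spread more than the CON libraries. Zfp983 stood at 1.497, 1.35 and 1.63 CPM in CON and 2.79, 2.08 and 1.97 in KD, a 1.53-fold rise (adjusted p = 0.0206) that did not pass without CON-1, CON-2 or KD-1 (adjusted p = 0.0509, 0.0733 and 0.135). Zfp942 rose 1.26-fold (adjusted p = 0.0346) with overlapping groups, and this call was lost without CON-2, CON-3, KD-2 or KD-3 (adjusted p = 0.107, 0.173, 0.0888 and 0.0828).

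In the same cluster, Zfp948, a protein of 15 fingers, fell from 27.6, 24.8 and 28.6 CPM in CON to 17.6, 16.8 and 19.8 in KD. The groups were well apart (1.496-fold, adjusted p = 2.19e-05), and 0.116% of its stretches recur in other genes. Zfp945 stood at 17.5 ± 0.79 CPM in CON and 13.98 ± 2.08 in KD, and Zfp946 at 4.33 ± 1.10 and 2.98 ± 0.42 (SD, n = 3). Their falls were 1.26- and 1.46-fold (adjusted p = 0.0112 and 0.0211). The Zfp945 call was lost without KD-1 (adjusted p = 0.052), and the Zfp946 call without CON-1 or KD-2 (adjusted p = 0.148 and 0.0865). Both were also lost when libraries were scaled by size only (adjusted p = 0.416 and 0.162). Summed over the cluster, the level was 76.6 ± 4.84 CPM in CON and 72.3 ± 7.42 in KD.

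In the chromosome 2 cluster (chr2:175469985-178078476), which spans 2.61 Mb, 4 of 8 members were tested, and 0 rose and 0 fell. No count changed at an unadjusted p under 0.05, and DESeq2 also called 0 in either direction. The log2 fold changes of Zfp970, Zfp971, Zfp972 and Zfp931 ran from -0.53 to 0.18, and Zfp970 passed as higher when libraries were scaled by size only (adjusted p = 0.0462). The other 4, Zfp965, Zfp966, Zfp969 and Zfp973, had 0 to 7 counts a library and were not tested. Between 84.7 and 100% of the stretches of these 4 recur in other genes, with Zfp969 at 100%. Zfp957 on chromosome 14, with 0 to 6 counts, was the only other member not tested.

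The chromosome 7 cluster (chr7:42579783-43192109) has 4 members. Zfp936 stood at 30.3, 26.4 and 24.8 CPM in CON and 16.6, 17.6 and 21.4 in KD, so the groups were apart, and the fall was 1.47-fold (adjusted p = 0.00017). Zfp975, Zfp976 and Zfp977, which lie together at the other end, did not pass and had log2 fold changes from -0.01 to 0.16, with standard errors of 0.09 to 0.13.

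The chromosome 8 cluster (chr8:69209038-69749970) holds Zfp964, the only member at least 2-fold higher. It stood at 3.11, 2.56 and 2.64 CPM in CON and 5.49, 6.96 and 6.29 in KD. The lowest KD library was far above the highest CON library, and the rise was 2.25-fold (log2 fold change 1.17, SE 0.15, adjusted p = 5.50e-06). Zfp964 shares 2.26% of its stretches with other genes. Its neighbours Zfp930 (17.02 ± 2.03 CPM in CON, 14.2 ± 3.21 in KD) and Zfp963 (1.62 ± 0.28 and 1.94 ± 0.22) did not pass. Zfp930 passed as lower without KD-3 (adjusted p = 0.000504), which was the highest KD library for it.

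Of the 20 members in no cluster, 19 were tested, 2 rose (10.5%) and 5 fell (26.3%), beside 32.2% and 30.8% of all genes tested. Zfp954 stood at 6.13, 5.91 and 6.09 CPM in CON and between 9.54 and 10.5 in the KD libraries, with tight groups and a 1.66-fold rise (adjusted p = 1.83e-05). Zfp937 stood at 3.70, 2.502 and 2.09 CPM in CON and 4.68, 4.56 and 4.84 in KD, a 1.69-fold rise (adjusted p = 0.0022) with most of the spread in CON. Zfp937 shares 29.4% of its stretches with other genes, so its value is uncertain. Zfp961, the most abundant of the 5 that fell per kilobase of exon, stood at 49.6, 46.6 and 45.3 CPM in CON and 28.0, 27.3 and 28.7 in KD. Its libraries hardly varied within a group, and the fall was 1.69-fold (adjusted p = 5.01e-08).

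Zfp934 fell most outside chromosome 4, from 7.34, 5.89 and 6.67 CPM in CON to 3.82, 3.41 and 3.36 in KD (1.88-fold, adjusted p = 3.12e-05). Zfp951 (18.3 ± 1.55 CPM in CON, 11.5 ± 0.72 in KD) fell 1.58-fold. Zfp932 (11.2 ± 1.05 and 7.61 ± 0.63) fell 1.47-fold, and its protein has been described, with that of its paralog Gm15446, as a repressor of endogenous retroviruses. Zfp934 and Zfp932 share 30.9 and 37.0% of their stretches with other genes, so their single values are uncertain. Zfp959 (4.91 ± 0.83 and 3.46 ± 0.59) fell 1.42-fold (adjusted p = 0.0167), a call lost without CON-1 or KD-2 (adjusted p = 0.0888 and 0.0844) and with libraries scaled by size only (adjusted p = 0.163). Among those that did not pass, Zfp960 and Zfp974 passed as lower without KD-3 (adjusted p = 0.000179 and 0.0176), Zfp953 as lower without CON-3 (adjusted p = 0.0176), and Zfp941 as higher without KD-1 (adjusted p = 0.0364).

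By level, the 23 members with a mean of at least 10 CPM over the 6 libraries held 15 that fell (65.2%) and 1 that rose (4.35%), Zfp942, beside 30.8% lower and 32.2% higher of all genes tested. Of the 15, 10 belong to the chromosome 4 cluster. The 31 members at 1 to 10 CPM held 8 that fell (25.8%) and 6 that rose (19.4%), both below those shares. The 2 tested members under 1 CPM, Zfp972 and Zfp993, did not pass. The shares of all genes cover every level and were not split by level, so level and membership cannot be told apart in these contrasts. A single count was worth 0.0234 to 0.0307 CPM, so members near 1 CPM rest on few counts a library, and small differences there were not detectable at this depth.

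Per kilobase of exon, which puts genes of different length on the same scale, Zfp990 was the most abundant member at 22.7 CPM per kb in CON and 12.8 in KD. Zfp978 followed with 21.1 and 9.81, then Zfp979 with 13.2 and 6.11, Zfp988 with 11.8 and 6.19, and Zfp961 with 10.9 and 6.46. The next were Zfp948 (10.2 and 6.81 CPM per kb), Zfp956 (7.27 and 7.74), Zfp936 (8.30 and 5.67), Zfp985 (9.002 and 4.47) and Zfp982 (8.95 and 4.44). Of these 10, 6 lie in the chromosome 4 cluster and 9 fell. The exception, Zfp956, stood at 21.01, 22.1 and 21.6 CPM in CON and 22.8, 24.4 and 21.7 in KD, with a log2 fold change of 0.09 (SE 0.07, adjusted p = 0.306). Its protein held 5 of the 11 KRAB letters searched for, under the minimum of 9.

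Over all 56 tested members, 12.5% rose and 41.1% fell, beside 32.2% and 30.8% of all genes, and the median log2 fold change was -0.27 beside 0.018 (-0.44 without KD-3). All KD libraries lay above all CON libraries for 7 members and below them for 24, where 67.1% of all genes tested had groups that did not overlap in either direction. Scaling by library size alone moved the median log2 fold change of all genes from 0.018 to 0.247, and 17 members then rose and 20 fell, with 14 of the falls again on chromosome 4. The 307 other genes named Zfp with a number only, of which 300 were tested, held 108 higher and 70 lower, with a median log2 fold change of 0.11 (0.05 without KD-3). The KRAB zinc finger genes outside the members, 219 tested, held 61 higher and 47 lower. The difference between these lists was not tested.

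Of 38 cofactor genes listed for the pathway through which KRAB zinc finger proteins act, 26 fell (68.4%), 5 rose (13.2%) and 7 did not pass, beside 30.8% lower and 32.2% higher of all genes tested. Trim28, the corepressor that binds the KRAB domain, stood at 2117 ± 62.3 CPM in CON and 917 ± 43.4 in KD (SD, n = 3), a 2.31-fold fall (adjusted p = 3.38e-12). Dnmt3l, a cofactor of de novo DNA methylation, fell 3.01-fold, Rif1, which takes part in silencing of retroviral elements and in replication timing, 2.87-fold, the HP1 gene Cbx1 2.13-fold and the DNA methyltransferase Dnmt3b 2.13-fold. Setdb1, the H3K9 methyltransferase recruited by TRIM28, fell 1.20-fold (149 ± 7.69 and 124 ± 4.84 CPM, adjusted p = 0.000294). The 5 that rose were Suv39h1 (1.45-fold) and Ehmt1 (1.13-fold), which encode H3K9 methyltransferases, Pphln1 (1.34-fold), a subunit of the HUSH silencing complex, the remodeller Chd4 (1.27-fold) and the SETDB1 partner Atf7ip (1.26-fold).

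Among 10 KRAB zinc finger genes listed for their described targets, 9 were tested, 3 rose and 3 fell (33.3% each way), near the 32.2% and 30.8% of all genes tested. Zfp57, which protects imprinted loci, stood at 488 ± 4.10 CPM in CON and 203 ± 7.69 in KD, a 2.41-fold fall. Zfp568 fell 2.08-fold, and Zfp819 4.30-fold from 11.9 ± 0.69 to 2.77 ± 0.30 CPM. Zfp809, which silences murine leukaemia virus in embryonic cells, rose 1.57-fold from 20.7 ± 0.80 to 32.5 ± 1.97 CPM (SD, n = 3).

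In the authors' deposited table, which gives fold changes as CON over KD, 28 members had an adjusted p under 0.05, 23 of them with CON higher and 5 with KD higher. The authors' deposited table marks 9 members as up, which are the 9 chromosome 4 genes named above with at least 2-fold falls, and Zfp964 as down. For 54 of the 56 members tested here, the authors' deposited table gave the same call and direction. The others were Zfp942 and Zfp983, with adjusted p of 0.0858 and 0.0979 in the authors' deposited table.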

How the data were processed

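RNA was measured in 6 libraries, 3 CON and 3 KD, grouped by the labels' genotype and treatment. Per the submitters' processing notes, FastQC 0.11.9, STAR 2.5.3a, featureCounts and the build mm10 were used. The sources used here name no annotation, strand setting or rule for reads that map to several places. The authors deposited raw counts per gene, per the file headers. The FPKM values the authors deposited beside them were not tested. The authors' deposited log2 fold changes and adjusted p-values come from a test that no source used here names, and from the values they are CON over KD. Every column matched a sample.

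The counts were tested with edgeR 4.0.16 in R 4.3.3: filterByExpr (18019 genes kept), TMM (factors 0.922 to 0.926 in CON, 1.08 to 1.084 in KD), robust quasi-likelihood test, and Benjamini-Hochberg adjustment over all genes with a threshold of 0.05. Alternatives were size-only scaling, DESeq2 1.42.0, no filter, at least 1 CPM in 3 libraries, a replicate block, counts divided by 2, and leaving out each library. Between 70 and 71.7% of counts from 1 to 20 were even, so low counts may stand for fewer fragments than their value. Positions, lengths and coding sequences came from GENCODE M21 (GRCm38) by gene identifier, and windows before start sites from RefSeq (GRCm38.p6), which names 51 members.

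Members, lists and tests were chosen with earlier results of these data known, so no test of a list is given. Members were named by largest change (12 each way among those past the threshold at 1 CPM or more without overlap), level per kilobase (10), smallest p in each cluster (3 each way) and among cofactors (5 each way). The others are named to account for every cluster, and were chosen after their values were seen, as was the search for shared promoter stretches.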

Additional observations from a re-analysis of the deposited data

How the results depend on the processing

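The counts of members that rose (7) and fell (23) were the same in DESeq2, with counts divided by 2, and with a minimum of 1 CPM in 3 libraries, and no member lost its call there. Scaling by library size only gave 17 higher and 20 lower members, a member median of -0.044, 10 cofactor genes higher in place of 5 and 20 lower in place of 26, and, for the other numbered Zfp genes, 170 higher, 38 lower and a median of 0.34. For the chromosome 4 cluster it gave a median of -0.78 and 1 member higher, Zfp933. Zfp933 was also called higher in the fit with no count filter, where the median of the cluster was -1.01. That fit tested all 61 members and called 8 higher and 25 lower. Leaving out a single library gave 5 to 8 higher and 21 to 26 lower members, and for the chromosome 4 cluster 0 to 1 higher and 14 lower in each case. The median log2 fold change without a library ran from -0.44 to -0.20 for the members, from 0.052 to 0.13 for the other numbered Zfp genes, and from -1.07 to -0.98 for the cluster. Library KD-3 moved these most, to -0.44 for the members and 0.052 for the other numbered Zfp genes without it, and the cause was not tested. No called member or cofactor value that is named changed sign in any of these settings. Without the members that share exonic bases with other genes, 5 were higher and 20 lower. With the replicate number as a replicate block, 7 members were higher and 24 lower, Zfp960 being added (adjusted p = 0.0448). The correlations of same-numbered libraries were -0.12, 0.04 and -0.06, so the numbers were not taken as pairs. Members under 1 CPM are limited by counts, and values of genes with much shared sequence by the assignment of reads.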
